A study of Mus musculus with 8 samples.

Results

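The Ms4a4, Ms4a6 and Ms4a7 genes are a group of 8 neighbouring mouse genes for membrane proteins of the MS4A family, Ms4a4a, Ms4a4b, Ms4a4c, Ms4a4d, Ms4a6b, Ms4a6c, Ms4a6d and Ms4a7. All 8 were found by symbol among the 18901 genes of the deposited table, and all 8 passed the filter of at least 10 counts over the 8 mice. They were selected on the difference between genotypes in these mice, on their counts and FPKM values, so that difference is described by its values, and where calls over the whole table are counted nothing about these genes is read from them. FPKM is the number of fragments scaled to transcript length and to sequencing depth, and levels of different genes are compared on that scale only.

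RNA was measured in whole cheek skin of 4 TBX20fl/fl;K14-Cre and 4 TBX20fl/fl mice, which are 7-week-old females whose Tbx20 alleles are both flanked by loxP sites. In TBX20fl/fl;K14-Cre mice the K14 promoter drives Cre recombinase in keratinocytes, which removes exons 2 and 3 of Tbx20, while TBX20fl/fl mice carry the same alleles without Cre. All 8 mice received 10 µg of brain natriuretic peptide (BNP), a peptide that elicits itch, by intradermal injection into the left cheek, were recorded for 30 min and gave tissue 5 h later. The comparison asks what differs in BNP-injected skin between mice with and without K14-Cre, and an effect of BNP itself is not compared here. The paper gives different genetic backgrounds for the K14-Cre and the floxed line. Loss of Tbx20 in keratinocytes, Cre itself and background therefore cannot be told apart. Counts of Tbx20 itself were 0 to 2 with Cre and 0 to 3 without it, too few to show its loss at this depth of 16056282 to 19880654 counts per mouse.

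MS4A proteins cross the membrane several times and act inside immune cells as partners of receptors and channels. The best known members are Ms4a1, which encodes the B cell protein CD20, and Ms4a2, which encodes the beta chain of the high-affinity IgE receptor on mast cells and basophils. Members of the Ms4a4, Ms4a6 and Ms4a7 groups are known from monocytes, macrophages and, for several of them, T cells, which enter skin when it is inflamed. Ms4a4a is known as a macrophage protein that joins the fungal receptor dectin-1, and Ms4a4b is known from T cells, where its protein associates with the costimulatory receptor GITR.

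TBX20fl/fl replicate 2 stood apart from the other mice. Its median Spearman correlation with the other mice over 13298 genes was 0.844, against 0.957 to 0.984 for the other 7. Its counts also followed transcript length differently, so that at the lengths of the 8 Ms4a genes the fitted trend was 0.49 to 1.00 log2 units above the mean in this mouse and -0.29 to 0.10 in the other 7. The genotype difference of each of the 8 genes is therefore given with all mice, without this mouse and with the length trend removed.

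The 8 genes lie in a block of 283.8 kb on chromosome 19, chr19:11321039-11604804 of GRCm38. In order along the chromosome they are Ms4a7, Ms4a4a, Ms4a4c, Ms4a4b, Ms4a6c, Ms4a6b, Ms4a4d and Ms4a6d, with Ms4a7 and Ms4a6d on the minus strand and the other 6 on the plus strand. The block is flanked by Ms4a14 before Ms4a7 and by Ms4a2 after Ms4a6d. Of 9 genes of the table that start within the block 8 are the genes described here, and the other is Gm8369, a predicted gene between Ms4a6c and Ms4a6b. The Ms4a4 group is not contiguous, since Ms4a4d lies apart from the other 3 genes, between Ms4a6b and Ms4a6d, as the map of the block shows.

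**Figure D1:**
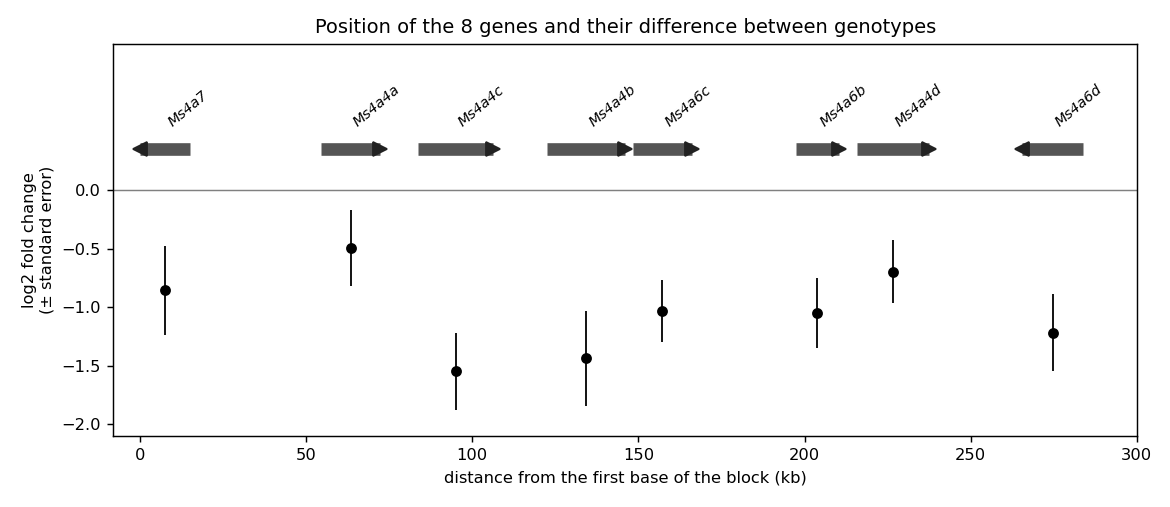
Grey bars show the 8 genes to scale by distance from the first base of the block (x axis, kb), with arrowheads for the strand, and points show the log2 fold change of TBX20fl/fl;K14-Cre against TBX20fl/fl with its standard error from edgeR (y axis, n = 4 mice per genotype). All 8 points lie below 0, from -1.55 for Ms4a4c to -0.49 for its neighbour Ms4a4a.

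The encoded proteins, read from the GENCODE M21 coding sequences, are 217 residues (Ms4a6c) to 267 residues (Ms4a7) long. Ms4a4b and Ms4a4c are the most alike, with 84.5% identical residues, followed by Ms4a4c and Ms4a4d with 75.6%. Within the Ms4a6 group identity was 72.9% for Ms4a6b and Ms4a6c, 71.3% for Ms4a6b and Ms4a6d and 65.0% for Ms4a6c and Ms4a6d. Ms4a4a is more distant from the other Ms4a4 genes, at 43.7% to 47.7%, and Ms4a7 shares 31.9% to 35.1% with the other 7 genes.

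This likeness matters for counts from reads of 50 bases, so the longest identical coding stretches are shown. Coding bases 321 to 447 are the same 127 bases in Ms4a4b, where they lie in exons 5 and 6 (chr19:11459161-11461265, plus strand, GRCm38, intron included), and in Ms4a4c, where they also lie in exons 5 and 6 (chr19:11419001-11421266, plus strand).
Ms4a4b and Ms4a4c: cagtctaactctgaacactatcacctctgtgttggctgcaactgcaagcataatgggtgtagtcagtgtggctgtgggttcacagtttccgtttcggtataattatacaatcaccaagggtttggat
Coding bases 100 to 180 are the same 81 bases in Ms4a6b (exons 3 and 4, chr19:11520438-11521703, plus strand) and Ms4a6d (exons 2 and 3, chr19:11601932-11603193, minus strand). Ms4a6c (exons 2 and 3, chr19:11471204-11472425, plus strand) differs from them at 4 of these bases, which are in capitals.
Ms4a6b and Ms4a6d: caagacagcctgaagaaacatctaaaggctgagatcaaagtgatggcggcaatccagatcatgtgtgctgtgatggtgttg
Ms4a6c: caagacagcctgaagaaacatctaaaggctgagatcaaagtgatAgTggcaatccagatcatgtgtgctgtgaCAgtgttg

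Over whole transcripts, 8.19% of the 50-base stretches of Ms4a4c, 143 of 1747, occur in the transcripts of another gene, 135 of them in Ms4a4b and 8 in Ms4a4d. The share was 10.5% for Ms4a6c, 3.57% for Ms4a6b, 2.54% for Ms4a6d and 2.40% for Ms4a4b. It was 0.546% for Ms4a4d, 0.306% for Ms4a7 and 0% for Ms4a4a. Not all of this sharing was within the group. Of the 211 shared stretches of Ms4a6c, 117 occur in Ms4a6b and 66 in Prdm11, a gene outside the family. Of the 212 of Ms4a4b, 135 occur in Ms4a4c, 63 in Ms4a2 and 14 in Gm8369. The sources used here do not state how reads from such stretches were divided, so small differences between Ms4a4b and Ms4a4c or among the Ms4a6 genes are uncertain.

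The RefSeq promoter table (GRCm38.p6, from 250 bases before to 50 bases after a start) held 8 windows for 7 of the genes, with 2 windows for Ms4a7. In this table too the closest pairs were Ms4a4c with Ms4a4b, which were 89.8% identical over 177 aligned bases, and Ms4a6c with Ms4a6b, which were 89.4% identical over 216 aligned bases. The other 26 pairs of windows aligned over at most 26 bases. These 4 windows are shown because their genes pair by sequence and all had fold changes below 0, and capitals mark the motif matches described next. The windows are chr19:11407411-11407710 for Ms4a4c, chr19:11443308-11443607 for Ms4a4b, chr19:11469118-11469417 for Ms4a6c and chr19:11518309-11518608 for Ms4a6b, all on the plus strand.
Ms4a4c promoter: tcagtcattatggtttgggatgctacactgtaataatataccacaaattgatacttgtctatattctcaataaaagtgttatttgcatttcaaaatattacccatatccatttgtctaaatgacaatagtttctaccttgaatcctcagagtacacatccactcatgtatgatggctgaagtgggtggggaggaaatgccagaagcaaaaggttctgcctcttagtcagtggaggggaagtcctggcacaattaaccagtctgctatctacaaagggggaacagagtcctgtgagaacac
Ms4a4b promoter: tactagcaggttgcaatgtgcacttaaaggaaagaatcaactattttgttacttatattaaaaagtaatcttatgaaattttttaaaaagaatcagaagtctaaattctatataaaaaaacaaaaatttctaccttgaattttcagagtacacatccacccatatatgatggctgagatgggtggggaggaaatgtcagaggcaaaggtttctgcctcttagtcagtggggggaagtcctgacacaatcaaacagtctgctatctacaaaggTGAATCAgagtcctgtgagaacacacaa
Ms4a6c promoter: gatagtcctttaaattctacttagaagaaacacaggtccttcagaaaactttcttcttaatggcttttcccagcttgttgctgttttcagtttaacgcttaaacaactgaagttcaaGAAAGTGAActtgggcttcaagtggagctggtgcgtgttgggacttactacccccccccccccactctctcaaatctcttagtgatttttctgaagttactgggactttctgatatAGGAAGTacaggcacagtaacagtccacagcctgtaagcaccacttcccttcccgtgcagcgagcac
Ms4a6b promoter: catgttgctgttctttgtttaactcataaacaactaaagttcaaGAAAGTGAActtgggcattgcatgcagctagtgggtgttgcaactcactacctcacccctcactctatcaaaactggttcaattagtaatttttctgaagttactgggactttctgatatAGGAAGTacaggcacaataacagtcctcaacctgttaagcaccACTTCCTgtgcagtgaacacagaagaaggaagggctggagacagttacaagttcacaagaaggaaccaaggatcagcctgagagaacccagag

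The 7 motifs were searched on both strands of all 32851 windows of the table, and no matches in the Ms4a windows overlapped each other. The IRF motif GAAANNGAA, named for interferon regulatory factors, matched in 4 of the 8 Ms4a windows, those of Ms4a6c, Ms4a6b and both of Ms4a7, against 8.56% of all windows. The Ms4a6c and Ms4a6b matches have the same letters and lie in the aligned part of their windows, 133 and 206 bases before the start. The ETS/PU.1 motif AGGAAGT matched in the Ms4a6c and Ms4a6b windows only, against 9.35% of all windows. PU.1 is a transcription factor of myeloid cells. The AP-1 motif TGANTCA matched in the windows of Ms4a4b and 1 of Ms4a7, against 7.81%, and the C/EBP motif TTGCNNAA matched in that of Ms4a4d, against 10.8%. No Ms4a window held the T-box motif AGGTGTG (5.84% of all windows), the STAT motif TTCNNNGAA (8.30%) or the NF-kB motif GGGANTTCC (1.68%).

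The 8 genes spanned more than a 10-fold range of mean FPKM over the 8 mice. Ms4a6d and Ms4a6c were the highest, with means of 95.3 and 86.6 FPKM, and Ms4a6d was the higher in 6 of 8 mice, so their order was not beyond the spread. Ms4a4a followed at 61.3 FPKM and was below Ms4a6c and above Ms4a4c in 8 of 8 mice. Ms4a4c (35.9), Ms4a4d (33.0) and Ms4a6b (31.2) had no common order over the 8 mice, since Ms4a4c was above Ms4a4d in 3 of 8 and Ms4a4d above Ms4a6b in 6 of 8. Ms4a7 at 18.2 FPKM and Ms4a4b at 7.39 FPKM were the lowest and kept that order in 8 of 8 mice. The order of Ms4a4c and Ms4a4d differed by genotype, as Ms4a4c was above Ms4a4d in 0 of 4 TBX20fl/fl;K14-Cre mice and 3 of 4 TBX20fl/fl mice. Likewise Ms4a4c was above Ms4a6b in 1 of 4 TBX20fl/fl;K14-Cre mice and 4 of 4 TBX20fl/fl mice.

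**Figure D2:**
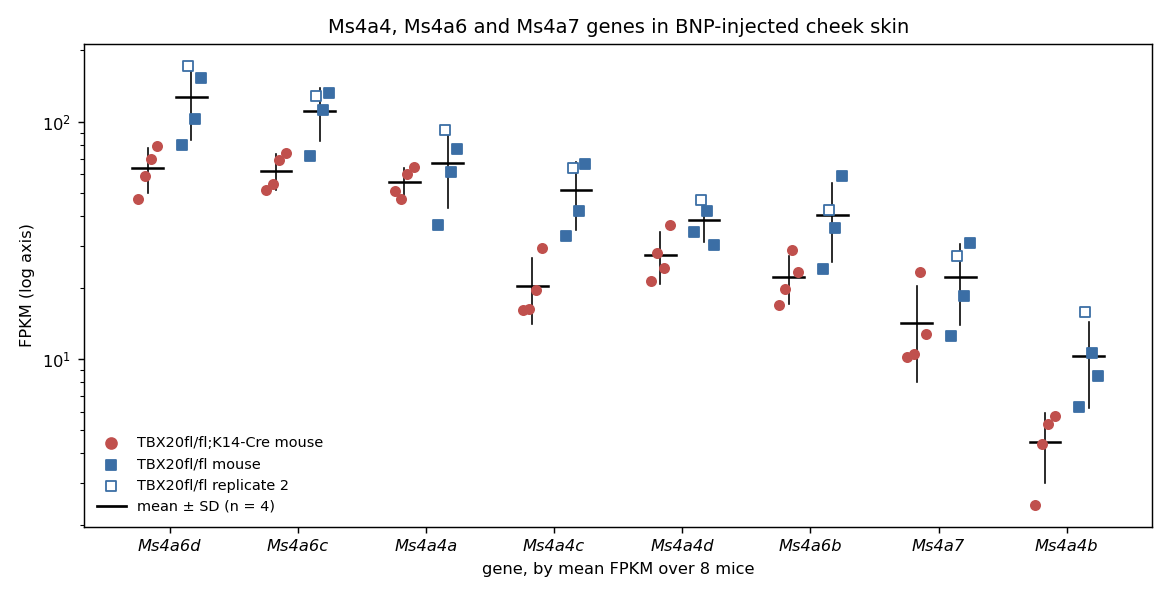
Each point is the FPKM of a gene in 1 mouse (y axis, log scale), with TBX20fl/fl;K14-Cre mice as red circles, TBX20fl/fl mice as blue squares, TBX20fl/fl replicate 2 as an open square, and black lines for the mean and SD (n = 4). The red and blue points are apart for Ms4a6d, Ms4a4c and Ms4a4b and overlap for the other 5 genes.

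In TBX20fl/fl;K14-Cre skin the fitted level of all 8 genes was lower than in TBX20fl/fl skin, with a median log2 fold change of -1.04 against 0.03 over all 17124 genes tested, of which 47.5% were lower. The difference was widest for Ms4a4c and Ms4a4b and smallest for Ms4a4a. No gene of the whole table passed an adjusted p-value of 0.05 in the edgeR quasi-likelihood test, so 0 of the 8 stood against a background of 0%. Over all genes 1431 had an unadjusted p-value under 0.05 in edgeR, 1012 of them (5.91% of the genes tested) lower in TBX20fl/fl;K14-Cre mice. DESeq2 called 10 genes, with Ms4a4c among them, but as Ms4a4c was selected on this comparison that call is no independent evidence. The FPKM ranges of the genotypes did not overlap for 3 of the 8, Ms4a4b, Ms4a4c and Ms4a6d, all lower in TBX20fl/fl;K14-Cre mice, while 1.87% of the genes tested were lower without overlap. Because the genes were selected on this comparison, nothing is read from these counts.

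Among the Ms4a4 genes, Ms4a4c (chr19:11404717-11427246) measured 16.07, 16.21, 19.53 and 29.48 FPKM in TBX20fl/fl;K14-Cre replicates 1 to 4. It measured 33.14, 64.04, 42.24 and 66.11 FPKM in TBX20fl/fl replicates 1 to 4. Every TBX20fl/fl;K14-Cre mouse lay below every TBX20fl/fl mouse. The means were 20.3 ± 6.31 and 51.4 ± 16.3 FPKM (SD, n = 4 each), and the log2 fold change was -1.55 (SE 0.33). It was -1.26 without TBX20fl/fl replicate 2 and -1.30 with the length trend removed, the widest difference among the 8 genes under each.

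Ms4a4b (chr19:11443558-11467055), the closest relative of Ms4a4c, was the lowest of the 8, with 2.43, 4.4, 5.32 and 5.73 FPKM in TBX20fl/fl;K14-Cre mice. TBX20fl/fl mice had 6.31, 15.78, 10.62 and 8.49 FPKM. The groups did not overlap, and TBX20fl/fl replicate 2 was the highest of all mice. The means were 4.47 ± 1.47 and 10.3 ± 4.06 FPKM (SD, n = 4 each), with a log2 fold change of -1.44 (SE 0.40). It was -0.97 without TBX20fl/fl replicate 2 and also -0.97 with the length trend removed.

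Ms4a4d (chr19:11536794-11558466) measured 21.24, 28.06, 24.1 and 36.7 FPKM in TBX20fl/fl;K14-Cre mice. In TBX20fl/fl mice it measured 34.44, 46.92, 42.14 and 30.36 FPKM. The groups overlapped, with TBX20fl/fl;K14-Cre replicate 4 above 2 of the TBX20fl/fl mice. The means were 27.5 ± 6.73 and 38.5 ± 7.46 FPKM (SD, n = 4 each), with a log2 fold change of -0.70 (SE 0.27), -0.42 without TBX20fl/fl replicate 2 and -0.37 with the length trend removed.

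Ms4a4a (chr19:11375488-11393315), the most divergent gene of the Ms4a4 group, measured 50.92, 47.21, 60.14 and 64.66 FPKM in TBX20fl/fl;K14-Cre mice. TBX20fl/fl mice had 36.76, 92.38, 61.63 and 77.03 FPKM. The lowest and the highest value both came from TBX20fl/fl mice, so the TBX20fl/fl;K14-Cre values lay within the range of the other group. The means were 55.7 ± 8.06 and 66.95 ± 23.7 FPKM (SD, n = 4 each), with a log2 fold change of -0.49 (SE 0.33). It was -0.11 without TBX20fl/fl replicate 2 and 0.04 with the length trend removed.

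In the Ms4a6 group, Ms4a6d (chr19:11586606-11604804), a gene known from macrophages, measured 47.47, 58.92, 69.6 and 79.2 FPKM in TBX20fl/fl;K14-Cre mice. TBX20fl/fl mice had 79.48, 172.01, 103.21 and 152.81 FPKM. The groups did not overlap, but the highest TBX20fl/fl;K14-Cre mouse and the lowest TBX20fl/fl mouse, at 79.2 and 79.48 FPKM, nearly met. The means were 63.8 ± 13.7 and 126.9 ± 42.9 FPKM (SD, n = 4 each), with a log2 fold change of -1.22 (SE 0.33). The log2 fold change was -0.85 without TBX20fl/fl replicate 2 and -0.83 with the length trend removed, where the groups overlapped.

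Ms4a6c (chr19:11469353-11487182) measured 51.36, 54.91, 69.04 and 73.56 FPKM in TBX20fl/fl;K14-Cre mice. It measured 71.57, 128.82, 111.69 and 131.87 FPKM in TBX20fl/fl mice. Only TBX20fl/fl;K14-Cre replicate 4 reached above the lowest TBX20fl/fl mouse, which was replicate 1. The means were 62.2 ± 10.7 and 111.0 ± 27.7 FPKM (SD, n = 4 each), with a log2 fold change of -1.03 (SE 0.26), -0.80 without TBX20fl/fl replicate 2 and -0.72 with the length trend removed.

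Ms4a6b (chr19:11518559-11531256), which is known from T cells as well as myeloid cells, measured 16.97, 19.66, 28.82 and 23.29 FPKM in TBX20fl/fl;K14-Cre mice. In TBX20fl/fl mice it measured 24.07, 42.32, 35.64 and 59.18 FPKM. TBX20fl/fl;K14-Cre replicate 3 lay above TBX20fl/fl replicate 1, and the other values were apart. The means were 22.2 ± 5.13 and 40.3 ± 14.7 FPKM (SD, n = 4 each), with a log2 fold change of -1.05 (SE 0.30), -0.88 without TBX20fl/fl replicate 2 and -0.81 with the length trend removed.

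Ms4a7 (chr19:11321039-11336146), known from macrophages and microglia, measured 10.18, 10.55, 23.31 and 12.74 FPKM in TBX20fl/fl;K14-Cre mice. TBX20fl/fl mice had 12.53, 27.3, 18.47 and 30.76 FPKM. TBX20fl/fl;K14-Cre replicate 3 stood above the other 3 of its group and above 2 TBX20fl/fl mice, so the groups overlapped. The means were 14.2 ± 6.18 and 22.3 ± 8.30 FPKM (SD, n = 4 each), with a log2 fold change of -0.86 (SE 0.38), -0.58 without TBX20fl/fl replicate 2 and -0.47 with the length trend removed.

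**Figure D3:**
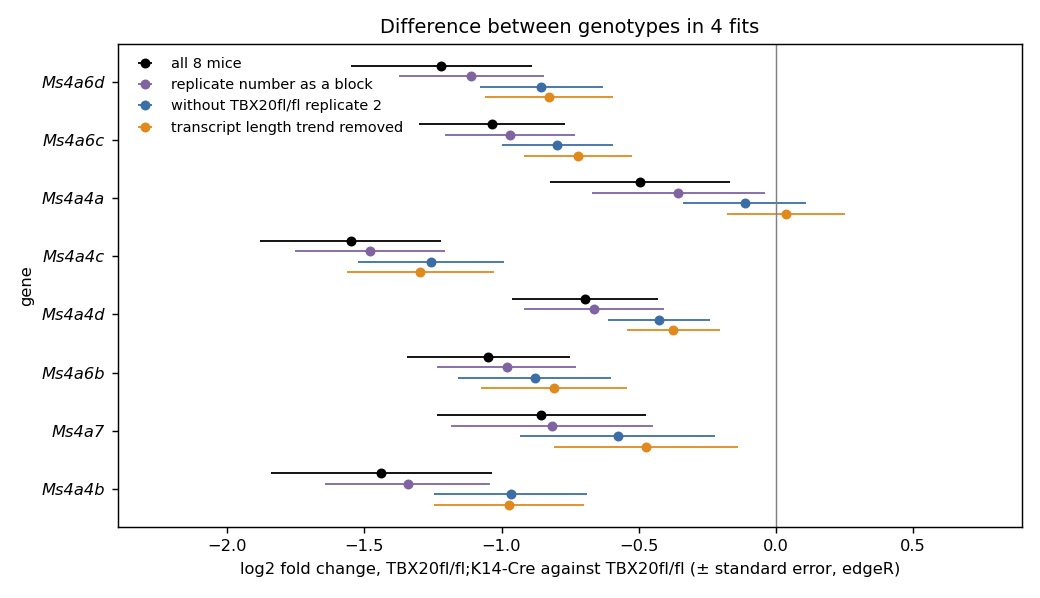
Points show the log2 fold change of TBX20fl/fl;K14-Cre against TBX20fl/fl for each gene (x axis) with its standard error from edgeR, for all 8 mice, with the replicate number as a block, without TBX20fl/fl replicate 2 and with the transcript length trend removed. Without replicate 2 or the length trend every point lay to the right of its all-mouse value, and with the length trend removed Ms4a4a reached 0.04.

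Across the 8 genes the median log2 fold change was -0.83 without TBX20fl/fl replicate 2 and -0.76 with the length trend removed. In whole skin, fewer cells of a type and less RNA per cell cannot be told apart for any of these values.

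The shares of 2 of the 8 genes in their summed FPKM, Ms4a4a and Ms4a4c, did not overlap between genotypes, and those of the other 6 did. Of the 28 ratios between the genes 22 overlapped, and each of the rest held Ms4a4a or Ms4a4c, the genes with the smallest and the widest fold change. No share over other genes or pairs of genes stands beside these counts, so nothing is read from them. Ms4a4a made up 20.8 ± 1.82% of the summed FPKM of the 8 genes in TBX20fl/fl;K14-Cre mice against 14.1 ± 1.39% in TBX20fl/fl mice (SD, n = 4 each), with every TBX20fl/fl;K14-Cre mouse above every TBX20fl/fl mouse. Ms4a4c made up 7.44 ± 1.15% and 10.9 ± 0.805%, again with no overlap but in the other direction. On the log2 scale the ratio of Ms4a4a to Ms4a4c ran from 1.13 to 1.66 with Cre and from 0.15 to 0.55 without it. The summed FPKM itself was 216.6 to 325.4 in TBX20fl/fl;K14-Cre mice against 298.3 to 589.6 in TBX20fl/fl mice, highest in replicate 2. The share of Ms4a6c was close in both groups, at 23.1 ± 0.467% and 23.9 ± 1.80%, and that of Ms4a6d was 23.5 ± 1.22% and 26.9 ± 2.05%. These shares come from the comparison on which the genes were selected and are described with no test.

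**Figure D4:**
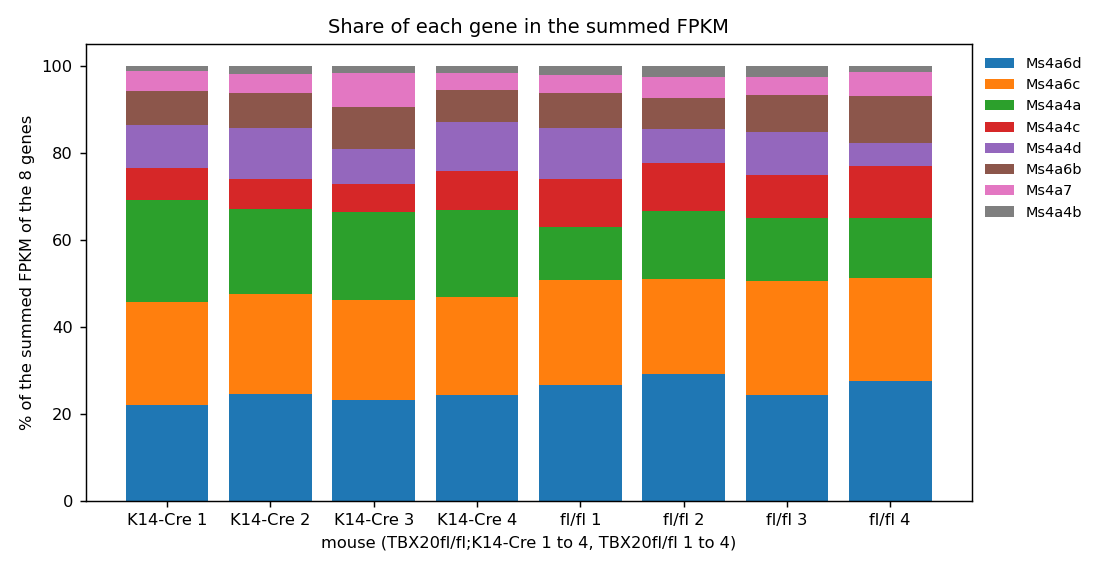
Each bar is 1 mouse and stacks the share of each gene in the summed FPKM of the 8 genes (y axis, %), with 4 TBX20fl/fl;K14-Cre mice on the left and 4 TBX20fl/fl mice on the right. The green Ms4a4a part spans 19.7% to 23.5% on the left and 12.3% to 15.7% on the right, and the red Ms4a4c part is wider on the right.

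Of 15 other genes listed for the MS4A family, 10 were in the table and 7 had at least 10 counts over the 8 mice. None of the 7 passed an adjusted p-value of 0.05 in edgeR or in DESeq2, while edgeR gave 2 of them, both lower, an unadjusted p-value under 0.05, against 5.91% of all genes tested. Ms4a2, which lies next to Ms4a6d, measured 4.24, 4.04, 3.89 and 4.8 FPKM in TBX20fl/fl;K14-Cre mice against 5.91, 7.44, 7.39 and 6.57 FPKM in TBX20fl/fl mice. These ranges were apart, the log2 fold change was -0.87 (SE 0.20), and with the length trend removed it was also -0.87 (-0.68 without TBX20fl/fl replicate 2), with an adjusted p-value of 0.498 by edgeR. Ms4a8a, a family member outside the block, had means of 3.32 ± 1.08 and 6.33 ± 2.15 FPKM (SD, n = 4 each) and a log2 fold change of -1.13 (SE 0.37), -0.87 without TBX20fl/fl replicate 2 and -0.66 with the length trend removed. Ms4a14, on the other side of the block, had means of 0.785 ± 0.171 and 0.825 ± 0.365 FPKM (SD, n = 4 each). Tmem176a and Tmem176b, relatives of the family outside the block, had log2 fold changes of -0.43 (SE 0.22) and -0.40 (SE 0.24), -0.23 and -0.16 without TBX20fl/fl replicate 2, and 0.02 each with the length trend removed. The B cell gene Ms4a1 had 0 to 6 counts per mouse and Ms4a10 had 0 to 6, which is too few to compare.

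Partner genes of MS4A proteins were tested in the same fit, and 0 of 6 passed an adjusted p-value of 0.05 by edgeR or DESeq2, while edgeR gave 4 of them, all lower, an unadjusted p-value under 0.05, against 5.91% of all genes tested. Clec7a, which encodes dectin-1, measured 8.25 to 17.45 FPKM in TBX20fl/fl;K14-Cre mice against 17.23 to 36.61 FPKM in TBX20fl/fl mice, with a log2 fold change of -1.24 (SE 0.35), -0.83 without TBX20fl/fl replicate 2 and -1.09 with the length trend removed. Trem2, a lipid receptor of macrophages, had means of 1.87 ± 0.786 and 2.42 ± 1.01 FPKM (SD, n = 4 each) and a log2 fold change of -0.50 (SE 0.35), -0.49 without TBX20fl/fl replicate 2 and -0.16 with the length trend removed. Tyrobp, the adaptor of Trem2, had a log2 fold change of -1.01 (SE 0.34), -0.57 without TBX20fl/fl replicate 2 and -0.28 with the length trend removed. Tnfrsf18, which encodes GITR, had a log2 fold change of -0.54 (SE 0.30), -0.15 without TBX20fl/fl replicate 2 and -0.03 with the length trend removed. Fcer1a and Fcer1g, whose proteins form the IgE receptor with that of Ms4a2, had log2 fold changes of -1.56 (SE 0.47) and -0.98 (SE 0.28). These were -0.89 and -0.66 without TBX20fl/fl replicate 2, and -0.96 and -0.35 with the length trend removed.

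Apart from the genotype difference, most of the 8 genes varied together from mouse to mouse. This was measured by Pearson's r over the 8 mice between deviations of log2 CPM (counts scaled to library size) from the mean of each genotype, and it is a description in which all points share their libraries, their depth and TBX20fl/fl replicate 2. All 28 pairs had r above 0, with a median of 0.842, and the closest pair was Ms4a4a with Ms4a6c at 0.981. Without TBX20fl/fl replicate 2 the median was 0.734 and 26 of 28 pairs were above 0, and with the length trend removed it was 0.754, again with 26 of 28. The gene that departed from the others was Ms4a4d, whose median r with the other 7 was 0.624 with all mice, 0.158 without TBX20fl/fl replicate 2 and 0.185 with the length trend removed. Ms4a4a, in contrast, had medians of 0.865, 0.845 and 0.881, although its genotype difference was the smallest.

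Among the 13298 genes whose mean count was 50 or more, those most like the 8 genes together by this measure were Fcgr3 (r = 0.985), Il10rb (0.984), Clec4a3 (0.979), Alox5ap (0.977) and Ctss (0.975). Fcgr3 encodes an Fc gamma receptor, Il10rb a subunit of the interleukin-10 receptor, Clec4a3 a C-type lectin, Alox5ap the activator of 5-lipoxygenase and Ctss the protease cathepsin S. Without TBX20fl/fl replicate 2 their r was 0.941 to 0.983, and with the length trend removed it was 0.941 to 0.974 for 4 of them and 0.769 for Alox5ap. The choice did not use the genotype difference, though both rest on the same mice. The log2 fold changes of these genes between genotypes were -0.76, -0.41, -0.91, -0.68 and -0.89, each with an adjusted p-value of 0.498 by edgeR. They were -0.60 to -0.22 without TBX20fl/fl replicate 2, a mouse that the choice had included, and -0.50 to -0.21 with the length trend removed. For single genes the most alike were Mcfd2 for Ms4a4a, Ctsz for Ms4a4b, Bst1 for Ms4a4c and Rbm43 for Ms4a4d. They were Vim for Ms4a6b and Ms4a7, Alox5ap for Ms4a6c and Arpc1b for Ms4a6d. These r were 0.972 to 0.995, and 0.967 to 0.990 without TBX20fl/fl replicate 2. With the length trend removed they were 0.634 to 0.968, lowest for Arpc1b and Ms4a6d.

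The same deviations were set beside lists of marker genes, with the length trend removed. Ms4a4c (r = 0.95), Ms4a6d (0.93), Ms4a6c (0.92) and Ms4a4a (0.89) followed the mean of the monocyte list most closely, and the 8 genes together had r = 0.97 with it, or 0.95 without TBX20fl/fl replicate 2 and with the trend kept. For the 8 together the next were the neutrophil list at 0.75, the resident macrophage list at 0.68 and the mast cell list at 0.61, and the keratinocyte list was at -0.38. In the 7 mice without TBX20fl/fl replicate 2 the macrophage list at 0.85 came before the neutrophil list at 0.72. Ms4a7 had r = 0.73 with the macrophage list and 0.69 with the monocyte list. With the trend kept these were 0.62 and 0.64 with all mice, and 0.82 and 0.68 without TBX20fl/fl replicate 2, so their order depended on the setting. For the 8 together the monocyte list was not the closest before the length trend was removed. Its r was 0.71, against 0.80 for the mast cell, 0.76 for the neutrophil, 0.75 for the T cell and 0.72 for the adipocyte list. Ms4a4d had r = 0.50 with the monocyte list but 0.93 with the interferon-response list, 0.90 with the dendritic cell list, 0.87 with the NK cell list, here a mean of 3 genes, and 0.80 with the T cell list. Ms4a4b had r = 0.80 for both the monocyte and the T cell list and 0.75 for the dendritic cell list. Before the length trend was removed it followed the T cell list more closely than the monocyte list, with r = 0.93 against 0.55 with all mice and 0.90 against 0.73 without TBX20fl/fl replicate 2. With the length trend removed, Ms4a4b had r = 0.55 with the interferon-response list, and the other 6 genes had r between -0.29 and 0.23.

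**Figure D5:**
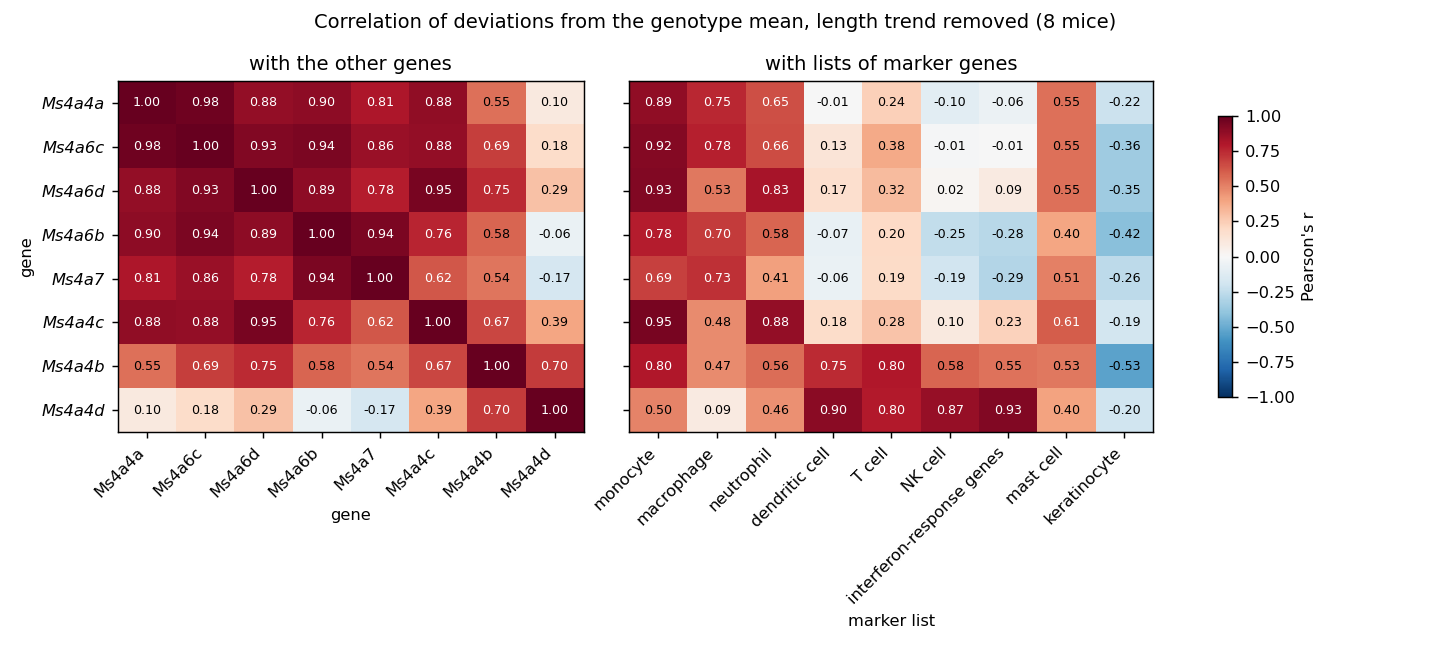
Each cell gives Pearson's r over 8 mice between deviations from the genotype mean of log2 CPM after removal of the length trend, on the left between the 8 genes and on the right between each gene (the same rows) and the mean of a marker list (columns), from blue (-1) to red (1). The bottom row, Ms4a4d, is pale on the left except beside Ms4a4b (0.70) and dark red on the right for the dendritic cell, T cell, NK cell and interferon-response lists.

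Lists of markers of the cells that could carry these transcripts were set beside these values. Of 14 monocyte genes 9 had a fold change below 0 and 0 passed an adjusted p-value of 0.05 by edgeR or DESeq2, with 6 lower at an unadjusted p-value under 0.05 by edgeR, against 5.91% of all genes tested. Their median log2 fold change was -0.70, -0.45 without TBX20fl/fl replicate 2 and -0.32 with the length trend removed. None of the 14 was at 0, and their summed level was 1523 to 2104 CPM in the 4 TBX20fl/fl;K14-Cre mice against 1740 to 4162 CPM in the 4 TBX20fl/fl mice, of which replicate 2 was the highest. Ly6c2, which marks inflammatory monocytes, measured 5.3 to 12.07 FPKM and 6.87 to 68.92 FPKM, and Ccr2, their chemokine receptor, 33.33 to 49.29 FPKM and 35.53 to 70.46 FPKM. The 5 genes of the list with a fold change above 0 were Vcan (0.42 on the log2 scale), Csf1r (0.39), Nr4a1 (0.21), Cx3cr1 (0.11) and Itgam (0.01). With the length trend removed Csf1r and Nr4a1 stayed above 0, at 0.24 each, while Vcan, Cx3cr1 and Itgam were below it, at -0.0015, -0.0035 and -0.18. Of 14 macrophage genes 9 were lower and 0 passed in either tool, 1 being lower and 1 higher at an unadjusted p-value under 0.05 by edgeR, with a median log2 fold change of -0.13, which was 0.06 with the length trend removed, and overlapping summed levels of 1390 to 2008 CPM and 1398 to 1936 CPM. The part of monocyte number in the lower Ms4a levels was not tested.

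Of the other lists, that of T cells summed to 174 to 228 CPM in TBX20fl/fl;K14-Cre mice against 184 to 263 CPM in TBX20fl/fl mice, with a median log2 fold change of -0.42 over 11 genes, -0.27 without TBX20fl/fl replicate 2 and -0.24 with the length trend removed. The NK cell genes, all 6 of them lower, summed to 17.6 to 27.0 CPM and 24.2 to 65.8 CPM, with a median of -0.81, or -0.65 with the length trend removed. Of the dendritic cell genes 9 of 11 were lower, with sums of 1317 to 2246 CPM and 1474 to 2780 CPM and a median of -0.38, or -0.09 with the length trend removed. All 11 interferon-response genes tested had a fold change below 0, with a median on the log2 scale of -0.75, or -0.61 with the length trend removed. These 4 lists are the ones that Ms4a4d followed.

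Mast cell genes, which stand beside Ms4a2, Fcer1a and Fcer1g, were lower for 5 of 6. They summed to 536 to 572 CPM in TBX20fl/fl;K14-Cre mice against 654 to 1388 CPM in TBX20fl/fl mice, and their median log2 fold change was -0.54, -0.28 without TBX20fl/fl replicate 2 and -0.10 with the length trend removed. Neutrophil genes, of which 9 of 9 were lower, summed to 232 to 360 CPM and 399 to 989 CPM, with a median of -0.96, or -1.01 with the length trend removed. B cell genes were near 0, at 1.41 to 2.19 CPM and 0.841 to 2.86 CPM, as was Ms4a1. Keratinocyte genes summed to 7451 to 9820 CPM and 8506 to 11232 CPM, with 2 of 8 lower and a median of 0.05, or 0.15 with the length trend removed. TBX20fl/fl replicate 2 set the upper end of the TBX20fl/fl range for the T cell, NK cell, dendritic cell, mast cell, neutrophil and keratinocyte sums. No gene of these lists passed an adjusted p-value of 0.05 by edgeR or DESeq2, and at an unadjusted p-value under 0.05 by edgeR 3 T cell, 3 NK cell, 1 dendritic cell, 9 interferon-response, 3 mast cell, 6 neutrophil, 0 B cell and 1 keratinocyte gene were lower, against 5.91% of all genes tested. Lower without overlap in FPKM were 3 of 9 neutrophil, 2 of 6 mast cell and 2 of 11 interferon-response genes and 0 in the other 5 of these lists, against 1.87% of all genes tested. The part of these cell types in the Ms4a values was not tested.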

How the data were processed

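Cheek skin RNA of 8 BNP-injected mice, 4 TBX20fl/fl;K14-Cre and 4 TBX20fl/fl, was sequenced on a DNBseq platform with single-end 50-base reads, 1 library per mouse. Reads were filtered with SOAPnuke and aligned with HISAT by the authors. The authors deposited 1 table of 18901 genes with coordinates on GRCm38. The deposited estimated counts are not normalized, and the authors' counting program is not given in the sources used here. The authors also deposited FPKM. The deposited TPM values and the deposited signal, which is each mouse's count over its size factor, were not used. Deposited columns of the authors' own comparisons between mice (log2 fold changes, p-values and q-values) and of group means were not used either.

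Counts summed to 16056282 to 19880654 per mouse, and 3 counts, taken as the lowest number detected, were 0.151 to 0.187 CPM. This floor covers counting error only. Counts were rounded, the 17124 genes reaching 10 counts in the sum of all mice were kept, and genotypes were compared with edgeR 4.0.16 (TMM scaling, quasi-likelihood test, R 4.3.3), with Benjamini-Hochberg adjustment over all genes and a threshold of 0.05. DESeq2 1.42.0 and limma 3.58.1 were alternatives, the latter on log2(FPKM + 1) or log2(FPKM + 0.1). The other alternatives were RLE scaling, other filters on low counts, the replicate number as a block, leaving out each mouse, and an offset that removes from each mouse a lowess trend of log2 CPM with transcript length. The script was tested on simulated data. P-values measure the spread between these mice.

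Replicate numbers come from the labels. Deviations from the genotype mean over 13298 genes correlated at 0.160 to 0.405 between mice of the same number, above 0.1 in every pair, and at -0.089 on average between other mice. The pair of TBX20fl/fl;K14-Cre replicate 4 and TBX20fl/fl replicate 1 was higher, at 0.426, and 5 of 8 mice correlated best with their own number. Deviations cancel within each genotype, so a negative average between other mice follows in part from the positive same-number values. Because every same-number pair was above 0.1, the numbers were treated as pairing the mice in the fits with the replicate block. The main fit and the other alternatives do not use this pairing, and the labels do not say what the numbers mark.

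The Ms4a genes, the gene and marker lists and the motifs were chosen with earlier results of these data known. Named genes are the 8 Ms4a genes, listed MS4A relatives and partners, and the genes whose deviations were most like them (TMM log2 CPM with a prior count of 2, mean count at least 50). Ly6c2, Ccr2 and the 5 genes with a fold change above 0 were named from the monocyte list, and Gm8369 for its place, after their values were seen. Promoters are from RefSeq (GRCm38.p6), all 8 genes matched RefSeq by gene identifier, and coding sequences are from GENCODE M21 (GRCm38). Alignments used Biopython 1.88. Summaries used Python 3.11.15, numpy 2.4.6 and pandas 2.3.3.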

Additional observations from a re-analysis of the deposited data

Results flagged for a closer look

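Fcer1a, which encodes the alpha chain of the high-affinity IgE receptor, measured 13.39 FPKM in TBX20fl/fl replicate 2 and 5.24 to 5.65 FPKM in the other 3 TBX20fl/fl mice, a gap wide enough to set this mouse apart within its group by Dixon's criterion. It was the only such value among 42 groups of 4 mice examined for the Ms4a genes, their relatives and their partners, where chance sets apart about 1 group in 20. The same mouse has the length trend described in the report.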

How the results depend on the processing

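The 8 genes were all lower in TBX20fl/fl;K14-Cre skin under each alternative except those with the length trend removed, where 7 of 8 were lower and Ms4a4a had a log2 fold change of 0.037, or 0.061 with the replicate block as well. Across all alternatives the median log2 fold change of the 8 genes ran from -1.24 to -0.74, and when each mouse was left out in turn from -1.24 to -0.83. DESeq2 called 10 genes of the table where edgeR called 0, among them Ms4a4c (log2 fold change -1.58), which had been selected on this comparison. The cause of the higher count was not tested. With the replicate block, which uses the pairing of the mice by number, 0 genes passed the threshold, the smallest adjusted p-value was 0.405 and the log2 fold change of Ms4a4c was -1.48, and the block changed no call. The number of the 8 genes without overlap between genotypes was 3 as deposited, 4 in TMM-scaled CPM and 2 with the length trend removed. Leaving out a mouse can only narrow the range of its group, so there the number could not fall below 3. It ran from 3 to 5, with 5 without TBX20fl/fl;K14-Cre replicate 4 or without TBX20fl/fl replicate 1. The share over all genes was taken only for the values as deposited (1.87% lower without overlap), so nothing is read from the other numbers. No MS4A relative, partner, monocyte or macrophage gene passed the threshold under any alternative. On log2(FPKM + 1) in limma the median of all genes was 0.12 rather than 0.03, and on log2(FPKM + 0.1) it was 0.18. Low counts limit Ms4a1 and Ms4a10, and TBX20fl/fl replicate 2 limits every TBX20fl/fl mean.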

Other observations

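Gm8369, the only other gene of the table that starts inside the Ms4a block, was counted 3.76 to 8.32 times with Cre and 4.15 to 9.73 times without it. Its neighbours Ms4a6c and Ms4a6b had 1473 to 3729 and 536 to 1856 counts per mouse. Ms4a5, Ms4a15 and Ms4a18 had at most 1 count in any mouse.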
